A study of Homo sapiens with 4 samples.

Results

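The aldehyde dehydrogenase (ALDH) genes described here are 10 human genes, ALDH1A1, ALDH1A3, ALDH2, ALDH3A1, ALDH3A2, ALDH3B1, ALDH5A1, ALDH6A1, ALDH7A1 and ALDH8A1. Every probe set that the array annotation assigned to 1 of them alone was taken, which gave 22 of 54675 probe sets and 10 of 19775 genes. The samples were SUM159 cells, an established human breast cancer line of mesenchymal, hormone receptor-negative character, carrying pTRIPZ-mir-100, from which doxycycline switches on the microRNA miR-100. The cells were sorted by flow cytometry into fractions positive (ALDH+) and negative (ALDH-) for aldehyde dehydrogenase and kept in suspension, either with doxycycline (DOX) or without it. The 4 groups were ALDH+ DOX, ALDH+ control, ALDH- DOX and ALDH- control, with 1 Affymetrix array each, and all 4 carried the construct. The sample titles name doxycycline for 10 h, while the descriptions give 13 h and name doxorubicin, another drug. The labels do not say whether the line was 1 clone, and cells without the construct that received DOX were not analysed here. With 1 array a group, differences between 2 arrays carry no p-value and could not be checked on replicates, and the small number of arrays limits their precision.

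Aldehyde dehydrogenases oxidise reactive aldehydes to carboxylic acids, or in the case of ALDH6A1 to an acyl-CoA, with NAD+ or NADP+ as the cofactor. Members of the ALDH1A subfamily turn retinaldehyde into retinoic acid, a ligand of nuclear receptors, while other members clear products of lipid peroxidation or finish the breakdown of single amino acids. High aldehyde dehydrogenase activity is used to enrich stem-like cells from breast tumours, and ALDH1A1 and ALDH1A3 are the members most often linked to that activity in breast tissue.

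The sequence of miR-100 is shown because it is the microRNA that DOX is meant to switch on from the construct. The mature strand below comes from RefSeq (GRCh38.p14, chr11:122152275-122152296, minus strand). Capitals mark the seed, bases 2 to 8, with which a microRNA pairs to its targets.
hsa-miR-100-5p: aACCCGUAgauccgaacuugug
The arrays do not measure the mature microRNA, and its induction could not be checked.

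The 250 bases before the start of 3 genes are shown because these genes bear the 3 patterns described below. ALDH6A1 was higher in ALDH+ cells under both treatments, ALDH1A1 was high in the ALDH+ control array alone, and ALDH1A3 was high in the ALDH- DOX array alone. The windows come from RefSeq (GRCh38.p14) and run 5′ to 3′ on the gene's strand, at chr14:74084454-74084703, minus strand, for ALDH6A1, at chr9:72953054-72953303, minus strand, for ALDH1A1 and at chr15:100879581-100879830, plus strand, for ALDH1A3. Capitals mark every match to 1 of 6 motifs searched on both strands.
ALDH6A1: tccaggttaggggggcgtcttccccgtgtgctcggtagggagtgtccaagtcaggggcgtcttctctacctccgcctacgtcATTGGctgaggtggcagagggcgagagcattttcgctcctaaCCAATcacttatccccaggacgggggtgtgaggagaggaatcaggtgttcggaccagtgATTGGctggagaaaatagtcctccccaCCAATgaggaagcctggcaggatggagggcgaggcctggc
ALDH1A1: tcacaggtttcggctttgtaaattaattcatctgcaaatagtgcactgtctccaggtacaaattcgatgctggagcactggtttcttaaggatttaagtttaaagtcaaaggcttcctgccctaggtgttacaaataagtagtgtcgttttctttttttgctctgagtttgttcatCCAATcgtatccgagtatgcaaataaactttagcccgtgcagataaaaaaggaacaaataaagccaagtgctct
ALDH1A3: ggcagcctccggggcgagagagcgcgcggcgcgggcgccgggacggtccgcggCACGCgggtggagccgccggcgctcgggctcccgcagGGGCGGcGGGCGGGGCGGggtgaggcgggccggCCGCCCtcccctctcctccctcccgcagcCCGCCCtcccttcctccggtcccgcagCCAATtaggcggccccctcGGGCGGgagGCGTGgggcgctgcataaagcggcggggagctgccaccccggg
The CCAAT box was searched by the letters of its name, the TATA box of core promoters as TATAAA and the GC box of Sp1-type factors as GGGCGG. The antioxidant response element was searched as TGACNNNGC. The element bound by C/EBP and ATF factors was searched as TGATGNAA. The core of the xenobiotic response element, bound by AHR, was searched as GCGTG. The ALDH6A1 window held 4 CCAAT boxes and no other of these motifs. Its CCAAT box nearest the gene began 40 bases before the start. The ALDH1A1 window held 1 match, a CCAAT box that began 74 bases before the start, in a sequence of 38.4% G and C. The ALDH1A3 window was 82.4% G and C and held 6 GC boxes, 1 CCAAT box and 2 xenobiotic response cores, with no overlap between matches to different motifs. Over 35116 promoter windows of the same length the median G and C content was 58%, and 32% held a CCAAT box, 42.6% a GC box and 32.2% the xenobiotic response core. Of the 10 listed genes, 8 matched the table, with 10 windows because ALDH3A2 and ALDH3B1 each had 2. A CCAAT box lay in 6 of these windows, a GC box in 5 and a xenobiotic response core in 3. None of the 10 held the TATA box letters, present in 10.7% of all windows, the antioxidant response element (10.9%) or the C/EBP-ATF element (3.14%). A match describes letters in a window and is not a measured site.

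On the arrays, a level is the authors' log2 probe set value, and each gene is given by the probe set with the highest mean over the 4 arrays. A log2 level of 6, close to the median of all probe sets, was used as the lower limit of a measured level. Of the 10 genes, 8 reached it on 1 or more arrays and 7 on all 4, against 12365 and 11164 of all 19775 genes. ALDH2, the mitochondrial acetaldehyde enzyme, had levels of 5.73 in ALDH+ DOX, 5.43 in ALDH+ control, 4.99 in ALDH- DOX and 4.83 in ALDH- control. ALDH3A1, which acts on aromatic and medium-chain aldehydes, had 4.84, 5.03, 5.31 and 5.03 in the same order. Both therefore stayed under the limit on all 4 arrays, and their differences give no direction. Levels of different probe sets cannot be set against each other, so that the order of the genes by level is not given.

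**Figure D1:**
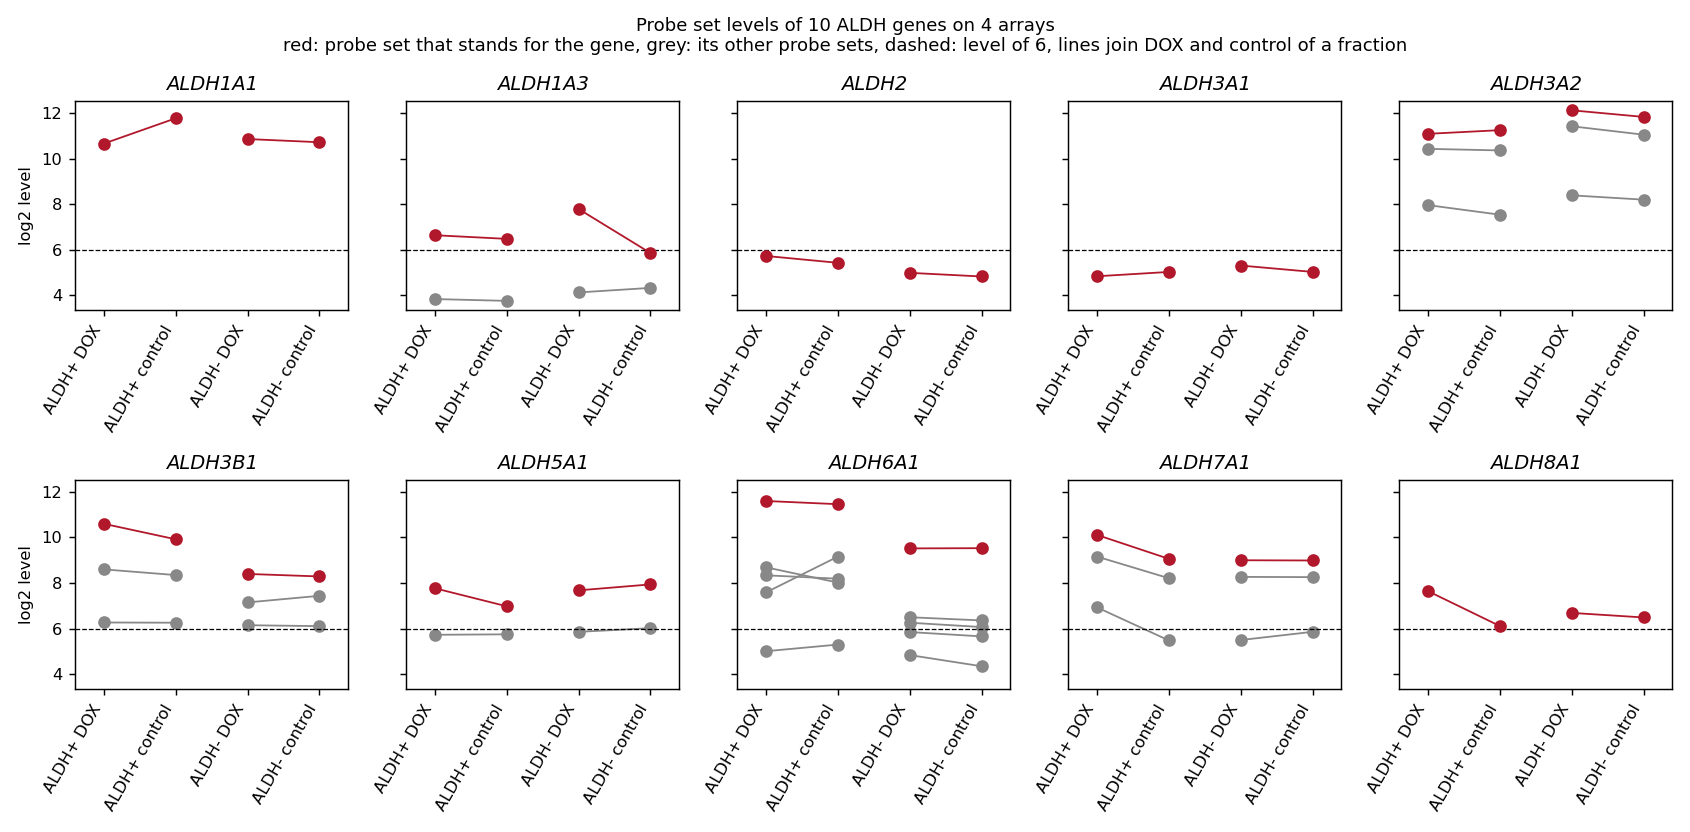
Log2 levels of all 22 probe sets of the 10 ALDH genes on the 4 arrays, with 1 panel a gene and lines joining DOX and control of a fraction. Red points are the probe set that stands for the gene, grey points its other probe sets, and the dashed line is the level of 6. ALDH6A1 and ALDH3B1 lie higher in both ALDH+ arrays, ALDH3A2 lies lower there, and ALDH2 and ALDH3A1 stay under the line.

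Markers of the named cell line were checked first. VIM, CDH2, FN1, ZEB1 and CD44 had levels between 11.07 and 13.79, while ESR1, PGR, CDH1 and EPCAM stayed under 6 on all arrays. Of the markers of other cell types, the B cell gene MS4A1 passed 6 in the ALDH+ DOX array alone (6.21) and rose in ALDH+ cells (1.35 ± 0.42 SE, limma adjusted p = 0.0354), by 2.47 in the DOX and 0.24 in the control arrays, and PTPRC, CD3E, CD14 and LYZ stayed under it. The endothelial marker KDR was higher in ALDH+ cells (2.92 ± 0.28 SE, limma adjusted p = 3.09e-05) and PECAM1 lower (-2.93 ± 0.36 SE, limma adjusted p = 0.000174), while VWF and CDH5 stayed under 6. GATA3, a luminal factor, rose in ALDH+ cells by 2.07 ± 0.28 (SE, limma adjusted p = 0.000287), while KRT8, KRT18 and KRT19 did not pass. HBB rose by 1.02 ± 0.29 (SE, limma adjusted p = 0.0225), and PLIN1 passed 6 in the ALDH+ DOX array alone (6.33). The mean log2 level of the 5 immune markers on the array was 4.75 in ALDH+ DOX and 4.45 in ALDH+ control, against 4.08 in ALDH- DOX and 4.16 in ALDH- control. That of the 4 endothelial markers was 6.14 in ALDH+ DOX and 5.96 in ALDH+ control, against 5.97 in ALDH- DOX and 6.20 in ALDH- control. The part of these markers in the ALDH results was not tested. The ALDH+ DOX array differed more from its control (Pearson's r = 0.983 over 54675 probe sets) than the ALDH- DOX array from its own (0.996). The median of genes in the ALDH+ DOX against ALDH+ control pair was 0.12, so that values of that pair are read against it. For the members, the ALDH+ minus ALDH- difference is therefore given in both pairs, the control pair being the one without that array.

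ALDH6A1 and ALDH3B1 rose and ALDH3A2 fell in ALDH+ cells over both treatments, and the other 5 measured members did not pass the test. The test was an additive limma model over the 4 arrays, with a term for the fraction and one for DOX, so that the DOX and the control pair stood in as repeats for one another. It left 1 residual degree of freedom a gene before moderation. That residual is the difference between the DOX and the control pair, so that a DOX response that differs between the fractions counts as error. The p-values do not measure spread between cultures or sorts, with all arrays possibly from 1 sort. Of all 12365 genes tested, 13.5% rose and 9.58% fell at a Benjamini-Hochberg adjusted p under 0.05. The median over the 8 members was 0.35 on the log2 scale, against 0.03 over all genes tested.

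ALDH6A1, the mitochondrial methylmalonate semialdehyde dehydrogenase of valine and thymine breakdown, had levels of 11.60 in ALDH+ DOX and 11.46 in ALDH+ control, against 9.52 in ALDH- DOX and 9.53 in ALDH- control. Both ALDH+ arrays lay above both ALDH- arrays, and DOX and control of a fraction lay close together. The difference was 2.08 in the DOX arrays (4.22-fold) and 1.93 in the control arrays (3.80-fold). In the additive model it was 2.0 ± 0.21 (SE, limma adjusted p = 5.27e-05). Of its 5 probe sets, 4 reached a level of 6, and all 4 were 2-fold or more higher in ALDH+ cells in both pairs, by 1.09 to 2.85 in the DOX arrays and 1.93 to 2.80 in the control arrays. Those 4 are of a shared kind, with names ending in _s_at or _x_at, which can bind several transcripts. The remaining one, 204289_at, had 5.01 in ALDH+ DOX and 5.30 in ALDH+ control, against 4.84 in ALDH- DOX and 4.35 in ALDH- control, and gives no direction.

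ALDH3B1, which oxidises lipid-derived aldehydes at membranes, had levels of 10.60 in ALDH+ DOX and 9.92 in ALDH+ control, against 8.40 in ALDH- DOX and 8.29 in ALDH- control. Both ALDH+ arrays were again above both ALDH- arrays. The difference was 2.20 in the DOX arrays (4.61-fold) and 1.63 in the control arrays (3.09-fold), and 1.91 ± 0.26 in the additive model (SE, limma adjusted p = 0.000345). All 3 of its probe sets lay above 0 in both pairs, but not by the same amount. The probe set 211004_s_at differed by 1.45 in the DOX and 0.91 in the control arrays. The dim 1565731_at, at levels of 6.11 to 6.27, differed by 0.13 and 0.15 in the DOX and control arrays. With the mean of the 3 probe sets the control difference was 0.90 and no longer 2-fold.

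ALDH3A2, the fatty aldehyde dehydrogenase of the endoplasmic reticulum, had levels of 11.09 in ALDH+ DOX and 11.25 in ALDH+ control, against 12.12 in ALDH- DOX and 11.83 in ALDH- control. It was lower in both ALDH+ arrays, by -1.03 with DOX (2.04-fold) and by -0.57 in the control pair (1.49-fold). The additive model gave -0.80 ± 0.17 (SE, limma adjusted p = 0.00495), which did not pass the threshold when eBayes was run with no trend or when dim genes were kept in. All 3 of its probe sets, of the shared kind, lay below 0, between -1.03 and -0.43 in the DOX arrays and between -0.68 and -0.57 in the control arrays.

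**Figure D2:**
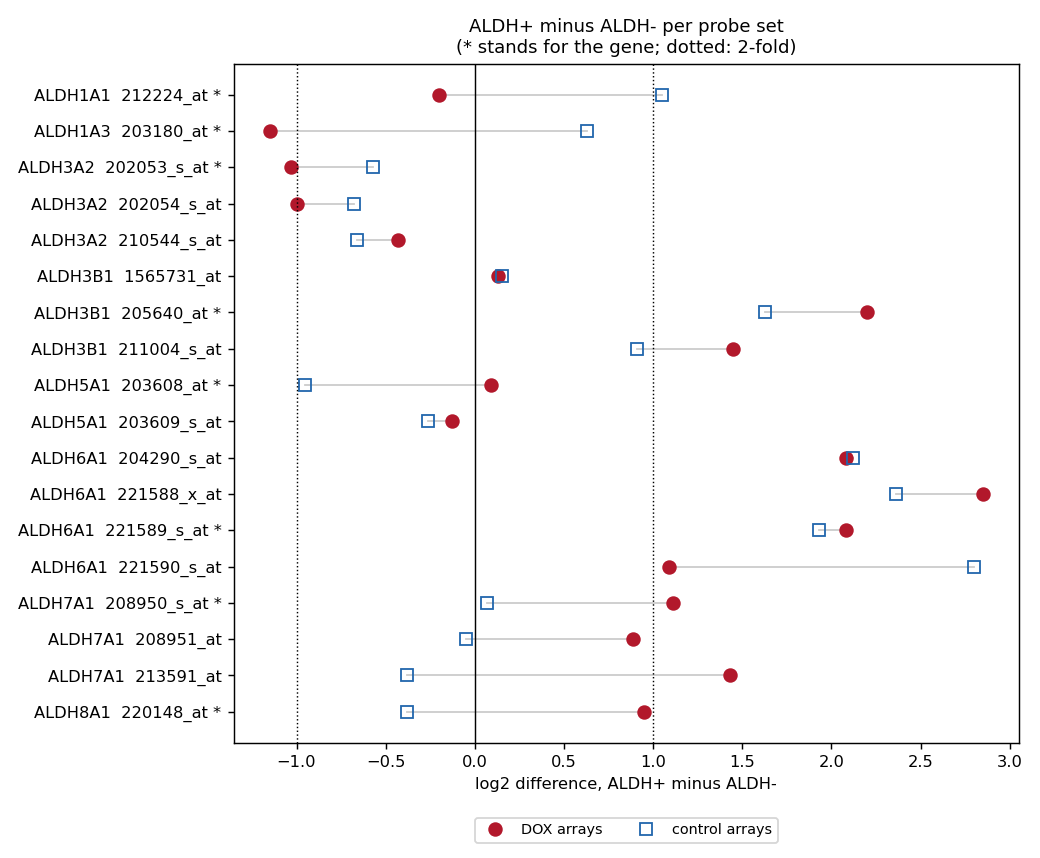
Log2 difference, ALDH+ minus ALDH-, of each member probe set that reached a level of 6 in at least 1 array, in the DOX arrays (red circles) and the control arrays (blue squares). Dotted lines mark 2-fold. The 4 probe sets of ALDH6A1 lie right of the 2-fold line in both pairs, those of ALDH3A2 lie left of 0, and ALDH1A1, ALDH1A3, ALDH8A1, the brighter probe set of ALDH5A1 and 2 of the 3 probe sets of ALDH7A1 change side between the pairs, that of ALDH5A1 as deposited but not after centring on the median of genes. Of these, 213591_at of ALDH7A1 was under 6 on both control arrays, so that its control value gives no direction.

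The members linked to retinaldehyde oxidation did not keep 1 direction between the fractions. ALDH1A1, the cytosolic retinal dehydrogenase, had levels of 10.66 in ALDH+ DOX and 11.77 in ALDH+ control, against 10.86 in ALDH- DOX and 10.72 in ALDH- control. Only the ALDH+ control array stood high, and the other 3 lay within 0.20 of each other. The ALDH+ minus ALDH- difference was -0.20 in the DOX arrays and 1.05 in the control arrays (2.07-fold). That last value lay between the 5th (-0.94) and the 95th percentile (1.09) of all genes in the control pair. The additive model gave 0.42 ± 0.26 (SE, limma adjusted p = 0.258). ALDH1A1 has 1 probe set on the array, 212224_at, so that no second probe set bears on it.

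ALDH1A3, a retinal dehydrogenase close to ALDH1A1, had levels of 6.64 in ALDH+ DOX and 6.48 in ALDH+ control, against 7.79 in ALDH- DOX and 5.86 in ALDH- control. The ALDH- DOX array stood highest and the ALDH- control array lowest, with both ALDH+ arrays between them. The difference between the fractions was -1.15 in the DOX arrays (2.22-fold lower in ALDH+) and 0.63 in the control arrays, or 0.48 with levels under 6 set to 6. The additive model gave -0.26 ± 0.37 (SE, limma adjusted p = 0.663). Its second probe set, 1558649_at, lay between 3.76 and 4.33 on all arrays, under the limit of measurement.

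ALDH8A1, an enzyme of tryptophan breakdown that also accepts retinaldehyde in the test tube, had levels of 7.64 in ALDH+ DOX and 6.11 in ALDH+ control, against 6.69 in ALDH- DOX and 6.49 in ALDH- control. The ALDH+ DOX array stood highest and the ALDH+ control array lowest. The fractions differed by 0.95 in the DOX and -0.38 in the control arrays, and by 0.28 ± 0.34 in the additive model (SE, limma adjusted p = 0.589). It has 1 probe set.

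Of the members that finish amino acid breakdown, ALDH5A1 and ALDH7A1 also differed in direction or size between the pairs. ALDH5A1, the mitochondrial succinic semialdehyde dehydrogenase of GABA breakdown, had levels of 7.77 in ALDH+ DOX and 6.98 in ALDH+ control, against 7.68 in ALDH- DOX and 7.94 in ALDH- control. The ALDH+ control array stood lowest, with a difference between the fractions of 0.09 in the DOX arrays, or -0.02 after centring on the median of genes, and -0.95 in the control arrays. Its dim second probe set, 203609_s_at, reached 6 in the ALDH- control array alone (6.02) and differed by -0.26 in the control arrays. With the mean of its probe sets the control difference was -0.61. ALDH7A1, also called antiquitin and part of lysine breakdown, had levels of 10.11 in ALDH+ DOX and 9.06 in ALDH+ control, against 9.0 in ALDH- DOX and 8.99 in ALDH- control. Here the ALDH+ DOX array stood apart from the other 3, with a difference between the fractions of 1.11 in the DOX (2.15-fold) and 0.07 in the control arrays. The additive model gave -0.43 ± 0.31 for ALDH5A1 (SE, limma adjusted p = 0.352) and 0.59 ± 0.29 for ALDH7A1 (SE, limma adjusted p = 0.167).

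By size, a gene was called at 2-fold or more where 1 or both arrays reached a level of 6. In the DOX arrays 3 of 8 members were higher in ALDH+ cells (ALDH3B1, ALDH6A1 and ALDH7A1) and 2 lower (ALDH1A3 and ALDH3A2), against 11.4% and 5.32% of 12228 genes compared. After each array was centred on the median of its genes, a choice made after seeing the data, 1124 of all genes were higher and 843 lower in this pair, against 1396 and 650 as deposited. ALDH7A1 was then at 0.99 and no longer called, which left 2 members higher and 2 lower. In the control arrays 3 of 8 were higher (ALDH1A1, ALDH3B1 and ALDH6A1) and none lower, against 6.09% and 4.4% of 12052 genes compared. The median of the members was 0.52 in the DOX and 0.35 in the control arrays, against 0.08 and 0.00 over all genes compared. The control pair, which does not use the ALDH+ DOX array, gives the same side as the DOX pair for ALDH6A1, ALDH3B1 and ALDH3A2. ALDH7A1 also lay above 0 in both pairs, but only by 0.07 in the control pair. ALDH6A1, ALDH3B1 and ALDH3A2 are the members that passed the additive model, which uses both pairs and takes their difference as error. The shared side is therefore no separate support. In sorted bulk cells, fewer cells that express a gene and less of its RNA in each cell cannot be told apart.

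**Figure D3:**
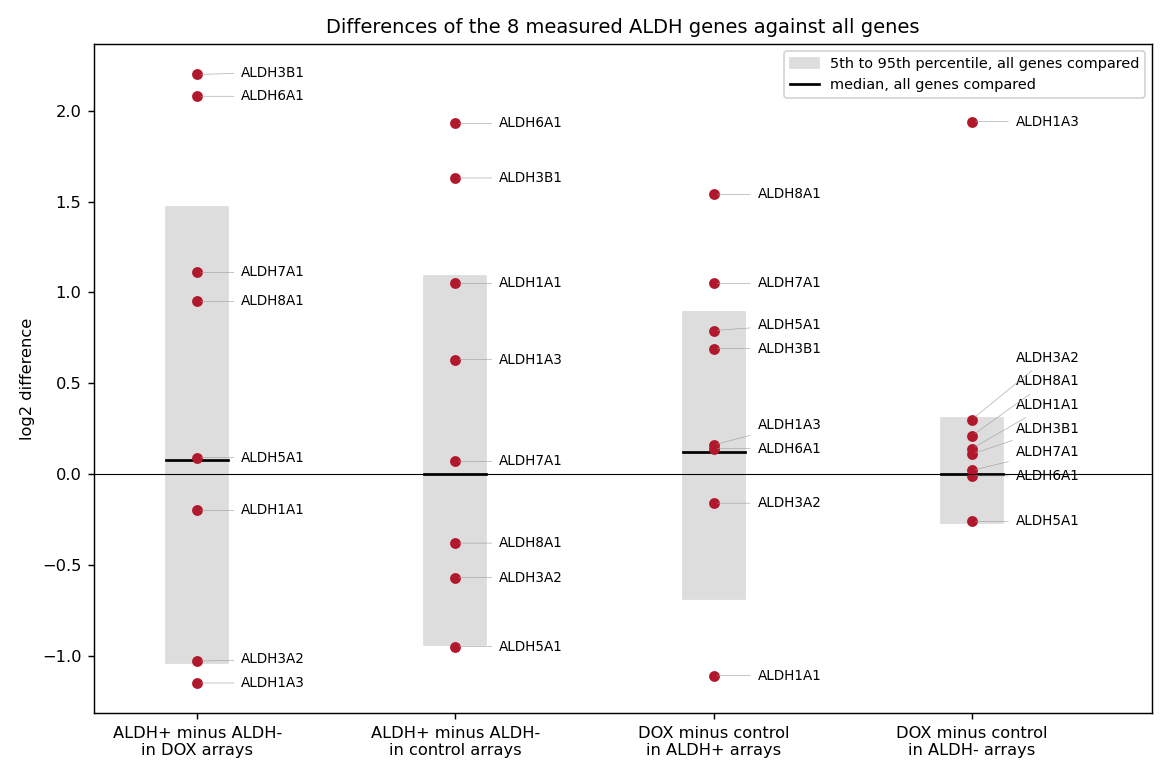
Log2 differences of the 8 measured ALDH genes (red points) in 4 comparisons, beside the 5th to 95th percentile (grey bars) and the median (black lines) of all genes compared. ALDH3B1 and ALDH6A1 lie above the grey bar in both comparisons of the fractions, ALDH1A1 lies inside it in the control arrays, and ALDH1A3 lies above it for DOX in ALDH- cells.

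DOX went with lower ALDH1A1 and higher ALDH8A1 and ALDH7A1 in ALDH+ cells, and with higher ALDH1A3 in ALDH- cells. In the ALDH+ pair ALDH1A1 differed by -1.11 (2.16-fold lower), ALDH8A1 by 1.54 (2.9-fold) and ALDH7A1 by 1.05 (2.07-fold). By size 2 of 8 members were higher and 1 lower, against 3.47% and 2.3% of 12151 genes compared. The split of all genes in this pair depends on the scaling, with 422 higher and 280 lower as deposited and 264 higher and 387 lower after centring on the median of genes. ALDH7A1 was at 0.92 after that centring, while ALDH8A1 and ALDH1A1 stayed past 2-fold. All 3 probe sets of ALDH7A1 were higher with DOX, by 0.95 to 1.45. ALDH5A1 (0.79) and ALDH3B1 (0.69) were higher by less than 2-fold in this pair, and ALDH3A2 (-0.16), ALDH1A3 (0.16) and ALDH6A1 (0.14) lay near 0. The second probe set of ALDH5A1 was under 6 on both arrays of this pair. With the mean of its probe sets the ALDH5A1 difference was 0.38. The probe sets of ALDH6A1 did not go together here, since 221590_s_at differed by -1.57, with levels of 7.59 in ALDH+ DOX and 9.16 in ALDH+ control, while the 3 others at the level of 6 lay between 0.14 and 0.67.

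In the ALDH- pair ALDH1A3 was higher with DOX by 1.94 (3.82-fold), or 1.79 with levels under 6 set to 6, since its control level was under the limit. It was the 1 member of 8 called higher, and none was lower, against 0.271% and 0.0508% of 11819 genes compared. The other 7 measured members lay between -0.26 (ALDH5A1) and 0.30 (ALDH3A2), between the 5th (-0.27) and the 95th percentile (0.31) of all genes in this pair. The ALDH1A1 difference was 0.14 and the ALDH7A1 difference 0.02.

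**Figure D4:**
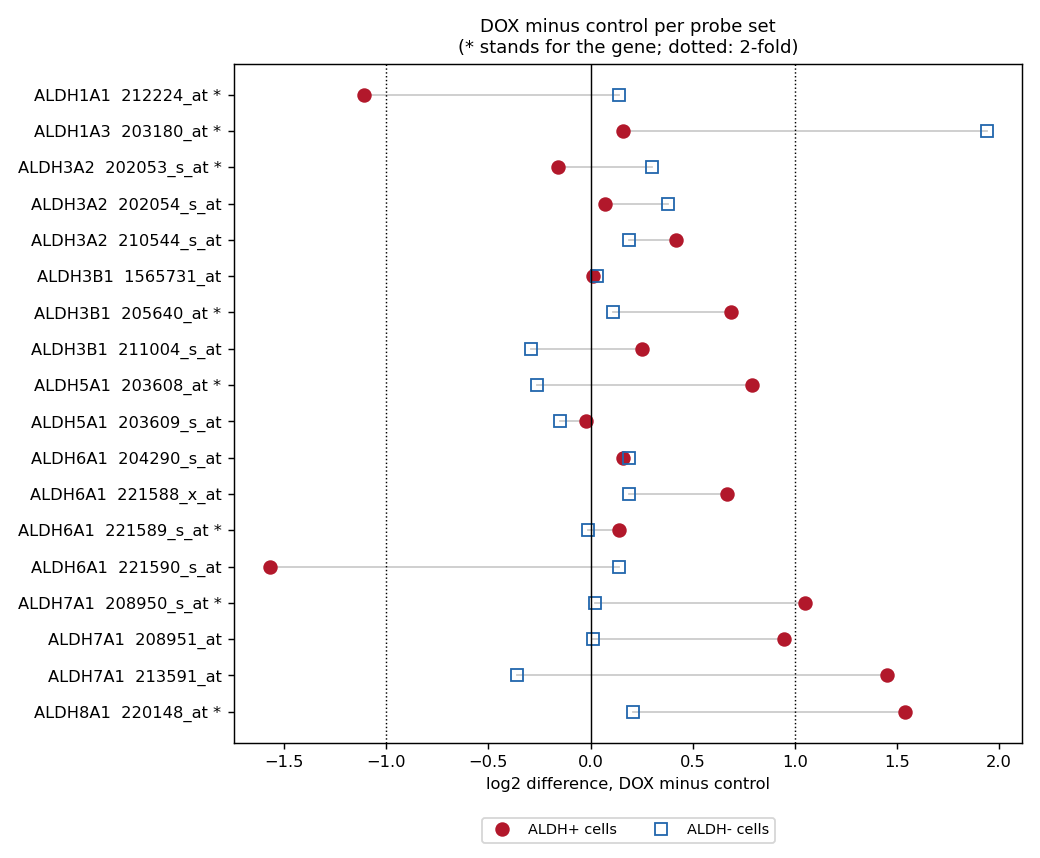
Log2 difference, DOX minus control, of each member probe set that reached a level of 6 in at least 1 array, in ALDH+ cells (red circles) and ALDH- cells (blue squares). Dotted lines mark 2-fold. The 3 probe sets of ALDH7A1 lie between 0.95 and 1.45 in ALDH+ cells and between -0.36 and 0.02 in ALDH- cells, and ALDH1A3 lies at 0.16 in ALDH+ and 1.94 in ALDH- cells. The value of -0.36 is that of 213591_at, which was under 6 on both ALDH- arrays and gives no direction there.

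The DOX difference of ALDH+ cells minus that of ALDH- cells was 2-fold or more for 5 of 8 members. It was 1.33 for ALDH8A1, 1.05 for ALDH5A1 and 1.03 for ALDH7A1, and -1.78 for ALDH1A3 and -1.25 for ALDH1A1. Of 12365 genes, 3.78% were called higher and 2.4% lower by the same rule, 468 and 297 genes as deposited and 295 and 440 after centring on the median of genes. With that centring ALDH5A1 was at 0.91 and ALDH7A1 at 0.89, and both were also under 2-fold after cyclic loess, at 0.98 and 0.96. The ALDH3B1 value was 0.58, ALDH3A2 -0.46 and ALDH6A1 0.15. No p-value can be given, since this difference uses up the 4 arrays. In the additive model for DOX, which takes such differences as error, no member passed. At an unadjusted p under 0.05 there were 2 members, ALDH1A3 (1.05 ± 0.37 SE, limma adjusted p = 0.855) and ALDH8A1 (0.87 ± 0.34 SE, limma adjusted p = 0.858), and 652 genes of all. Of the 12365 genes 0.00809% rose and 0% fell, the 1 gene being NID2, a basement membrane protein named after its value was seen.

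The comparisons of the fractions and those of DOX use the same arrays. A high value in the ALDH+ control array alone, as for ALDH1A1, enters both the ALDH+ minus ALDH- difference of the controls (1.05) and the DOX difference of ALDH+ cells (-1.11). A high value in the ALDH- DOX array alone, as for ALDH1A3, enters both the DOX difference of ALDH- cells (1.94) and the ALDH+ minus ALDH- difference with DOX (-1.15).

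The genes whose 4-array profiles came nearest to a member were found by the root mean square distance between profiles, each centred on its own mean, over 4 arrays and 11164 genes at a level of 6 in all of them. For ALDH6A1 they were UNC5B (0.04), PHGDH (0.04) and ANG (0.06). PHGDH, the first enzyme of serine synthesis, had levels of 11.37 in ALDH+ DOX and 11.15 in ALDH+ control, against 9.33 in ALDH- DOX and 9.31 in ALDH- control. For ALDH3B1 they were PBXIP1 (0.03), RUNX1T1 (0.04) and CALCOCO1 (0.05), and for ALDH1A1 LBH (0.05), SNORA72 (0.07) and TGIF1 (0.07). LBH had levels of 7.06 in ALDH+ DOX and 8.08 in ALDH+ control, against 7.19 in ALDH- DOX and 7.17 in ALDH- control, so that it too stood high in the ALDH+ control array alone. The nearest profiles to ALDH1A3 among the genes searched were farther away, at 0.29 for EN1, 0.34 for LRRK2 and 0.34 for IRF2BP1. Genes that, like ALDH1A3 (5.86 in ALDH- control), were under 6 on an array were not searched. Its distances therefore cannot be set against those of the other members.

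Of the other 9 human ALDH genes, each given by its brightest probe set, 6 reached a level of 6 in at least 1 array (ALDH1B1, ALDH1L1, ALDH4A1, ALDH9A1, ALDH16A1 and ALDH18A1), and none of the 6 was called in any of the 4 pairs. None passed the limma model for the fraction or for DOX, and none had an unadjusted p under 0.05. ALDH18A1, which makes a precursor of proline, differed between the fractions by -0.21 in the DOX and -0.52 in the control arrays. Its second probe set, 217791_s_at, of the shared kind, had levels of 9.51 in ALDH+ DOX and 10.34 in ALDH+ control, against 10.55 in ALDH- DOX and 10.65 in ALDH- control. The ALDH+ DOX array stood lowest there, and the fractions differed by -1.04 in the DOX and -0.31 in the control arrays, so that this probe set passed 2-fold in the DOX arrays where the brighter one did not. ALDH1A2, the third retinal dehydrogenase, ALDH1L2 and ALDH3B2 stayed under 6 on all arrays.

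Among enzymes that act beside the ALDH genes, several carbonyl-reducing enzymes fell in ALDH+ cells. Of 21 alcohol dehydrogenases, aldo-keto and carbonyl reductases, 11 were measured, and in the additive model 5 fell and none rose, against 9.58% and 13.5% of all genes tested. The median was -0.14, against 0.03 over all genes tested. They were AKR1C1 (-1.79 ± 0.13 SE, limma adjusted p = 5.01e-06), AKR1C2 (-1.42), AKR1C3 (-1.29), CBR1 (-1.50) and CBR3 (-0.75). The AKR1C genes are similar copies that can share probes, so that the 3 may not be separate measurements. AKR1C1 had levels of 11.78 in ALDH+ DOX and 12.51 in ALDH+ control, against 13.92 in ALDH- DOX and 13.95 in ALDH- control.

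Targets of NRF2, an antioxidant factor known to raise ALDH3A1, fell in 6 of 18 measured cases and rose in none (median -0.23), against 9.58% that fell and 13.5% that rose of all genes tested. HMOX1 was at -2.43 ± 0.41 (SE, limma adjusted p = 0.00144), GCLM at -1.87, NQO1 at -1.30, PGD at -1.07, GCLC at -0.85 and TXN at -0.30. HMOX1, which breaks down heme, had levels of 9.30 in ALDH+ DOX and 12.21 in ALDH+ control, against 13.11 in ALDH- DOX and 13.25 in ALDH- control, so that the ALDH+ DOX array stood far below the other 3. Its difference between the fractions was -3.81 in the DOX and -1.05 in the control arrays, and that of GCLC -1.43 in the DOX and -0.27 in the control arrays. ALDH3A1 itself was under the limit of measurement, as given above. Of 5 measured AHR targets, AHRR rose (1.07) and NQO1 fell, with a median of -0.36. The AHRR difference was 1.51 in the DOX and 0.63 in the control arrays.

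In the retinoid pathway, which supplies and uses the product of the ALDH1A enzymes, 15 of 25 genes were measured, of which 1 rose and 3 fell (median -0.33), against 13.5% and 9.58% of all genes tested. DHRS3, which returns retinaldehyde to retinol, rose by 1.11 ± 0.25 (SE, limma adjusted p = 0.00741). RDH10, which makes retinaldehyde from retinol, was at -0.93 ± 0.24 (SE, limma adjusted p = 0.0155), DHRS9, another retinol dehydrogenase, at -1.56 and the fatty acid and retinoic acid carrier FABP5 at -1.28. RDH10 had levels of 9.26 in ALDH+ DOX and 9.29 in ALDH+ control, against 10.24 in ALDH- DOX and 10.17 in ALDH- control.

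Genes of the wider pathways around ALDH6A1, ALDH5A1, ALDH7A1 and ALDH3A2 are read against the 13.5% that rose and 9.58% that fell of all genes tested. In branched-chain amino acid breakdown, which includes the valine breakdown of ALDH6A1 but is not limited to it, 2 of 18 measured genes rose. They were BCKDHA (1.22 ± 0.29 SE, limma adjusted p = 0.0101) and MCCC1 (0.69). DLD fell (-0.46), and the median was 0.17, so that the shares called lay under those of all genes. BCKDHA differed by 1.53 in the DOX and 0.90 in the control arrays, and MCCC1 by 0.97 and 0.41 in the same order. In GABA and lysine breakdown, the pathways of ALDH5A1 and ALDH7A1, 3 of 9 rose and 1 fell (median 0.16). ABAT, which makes the succinic semialdehyde that ALDH5A1 oxidises, rose by 1.58 ± 0.29 (SE, limma adjusted p = 0.00218), with levels of 9.03 in ALDH+ DOX and 8.38 in ALDH+ control, against 7.14 in ALDH- DOX and 7.12 in ALDH- control. DHTKD1 (0.90) and SUCLG2 (0.54) rose too, and SUCLA2 fell (-0.53). The DHTKD1 difference was 1.26 in the DOX and 0.54 in the control arrays. In sphingosine and fatty aldehyde metabolism, the pathway of ALDH3A2, 3 of 13 rose and none fell (median -0.11). They were SGPL1 (0.78 ± 0.19 SE, limma adjusted p = 0.0105), the lyase that releases a fatty aldehyde from sphingosine phosphate, the phosphatase SGPP2 (1.52) and PHYH (0.69). None of the 7 lists from the carbonyl-reducing enzymes onwards had a member that passed the limma model for DOX. Of their 88 genes tested, 6 had an unadjusted p under 0.05 in that model, against 652 of all 12365 genes.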

How the data were processed

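Gene expression was measured in 4 groups of sorted SUM159 cells with 1 Affymetrix array each. The deposited log2 values summarise probe sets and were made by the authors with RMA, per the submitters' processing notes, which name no version. RMA corrects background, makes the arrays' distributions alike and summarises probes, so that differences are relative to each array. No further scaling was applied. An annotation dated 2016 gave 41091 probe sets 1 gene, 1801 several and 11721 none, beside 62 controls, and symbols were updated by gene identifier.

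The members and lists were chosen with earlier results of these data known. Named beside all 10 members are, from each list, those that passed and up to 4 with the largest difference. The additive model was fitted to 12365 genes with limma 3.58.1 (lmFit, eBayes with trend, prior degrees of freedom 11.65) in R 4.3.3. It was also run on simulated data with no DOX response. That run cannot show how the model handles a response that differs between the fractions. Nothing in the labels names separate cultures or sorts, so that its p-values may not cover the spread between them. Alternatives were centring on all probe sets or on genes, cyclic loess, other levels, a floor of 6, means of probe sets, no shared probe sets, 1.5-fold, eBayes without trend or robust, and a fit over probe sets. Python 3.11.15, numpy 2.4.6, pandas 2.3.3 and matplotlib 3.10.9 were used.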

Additional observations from a re-analysis of the deposited data

Results flagged for a closer look

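For 4 members the difference between the fractions, or the response to DOX, went opposite ways with 2-fold or more between them. This was seen on 1 array each and was not tested. The share of all genes that met both conditions was not counted. By the 2-fold condition alone, 3.78% of 12365 genes were called higher and 2.4% lower. ALDH1A1 was lower with DOX in ALDH+ cells (-1.11) and slightly higher in ALDH- cells (0.14), a difference of -1.25. ALDH5A1 was higher with DOX in ALDH+ cells (0.79) and lower in ALDH- cells (-0.26), a difference of 1.05. ALDH1A3 was lower in ALDH+ than in ALDH- cells with DOX (-1.15) and higher in the controls (0.63), a difference of -1.78. ALDH8A1 was higher in ALDH+ cells with DOX (0.95) and lower in the controls (-0.38), a difference of 1.33. For all 4 members the smaller value lay between the 5th and the 95th percentile of all genes in its pair. These percentiles were -0.27 and 0.31 for DOX in ALDH- cells, and -0.94 and 1.09 for the fractions in the controls. The larger value also lay inside for ALDH5A1 (-0.69 and 0.89 for DOX in ALDH+ cells) and ALDH8A1 (-1.04 and 1.47 for the fractions with DOX). ALDH5A1 has a second probe set, whose difference of the DOX differences was 0.13. The ALDH5A1 value was under 2-fold after centring on the median of genes (0.91), after cyclic loess (0.98) and with the mean of its probe sets (0.59).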

How the results depend on the processing

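No paired analysis beyond the additive model was possible because each group has 1 array, and leaving out an array leaves that model no residual degree of freedom. Of 495 member values under the alternatives, none changed side while called, 475 kept their side of the threshold, 15 fell short of it and 5 passed it. Members under the level or with no probe set left in a setting are not among the 495. Settings that move only the level or the size leave the pair differences as they were. With a size of 1.5-fold, 5 members were called in the ALDH comparison of the controls in place of 3, and 5 for DOX in ALDH+ cells in place of 3. Over all genes, 1664 were then higher and 1478 lower in the controls, in place of 734 and 530. For DOX in ALDH+ cells 1780 were higher and 829 lower, in place of 422 and 280. With probe sets averaged per gene, 3 members in place of 5 were called in the ALDH comparison with DOX. All genes gave 987 higher and 585 lower there, in place of 1396 and 650. For DOX in ALDH- cells 0 in place of 1 were called, because ALDH1A3's mean was then under a level of 6. All genes gave 18 higher and 3 lower, in place of 32 and 6. For the difference of the DOX differences 3 in place of 5 were called. All genes gave 270 higher and 246 lower, in place of 468 and 297. The member count for that difference was also 3 after cyclic loess and 3 after centring on the median of genes. All genes gave 398 higher and 328 lower after cyclic loess, and 295 and 440 after that centring. Without shared probe sets, 2 members in place of 5 were called in the ALDH comparison with DOX, with 1173 of all genes higher and 618 lower. In the additive model for the fraction 1 in place of 3 passed, since ALDH6A1 was then under a level of 6 and ALDH3A2 had no probe set left. Over all genes, 1672 rose and 1184 fell in that model, against 1213 and 971 without shared probe sets and 998 and 529 without trend. The counts were 767 and 410 without a filter on level, and 1131 and 797 with means of probe sets. Levels under 6 cannot show a difference.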
